A study of Rattus norvegicus with 10 samples.

Results

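The ubiquitin-proteasome system and the molecular chaperones share the work of keeping proteins in shape. An E1 enzyme activates ubiquitin, an E2 conjugating enzyme carries it, a ligase passes it to a protein, and the 26S proteasome takes up and degrades the tagged protein. The 26S proteasome is a barrel, the 20S core, whose inner β-ring holds the cutting sites, capped by the 19S regulator, which binds ubiquitin chains and unfolds the protein with a ring of ATPases. Chaperones hold or fold proteins before that point. Prefoldin passes nascent actin and tubulin to the chaperonin TRiC, HSP70 works with J proteins and nucleotide exchange factors, and the FK506-binding proteins and cyclophilins turn proline bonds. In the lens, fibre cells keep their proteins for life after losing their organelles, and a failure to keep them folded clouds the tissue.

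The genes of this machinery were taken from the RNA-seq table of rat lens capsules by symbol: Psma to Psmg, Pomp, Ube2, Hsp, Dnaj, Cct2 to Cct8, Tcp1, Pfdn, Fkbp, Ppia to Ppih, Pdia, Bag1 to Bag6, St13 and Stip1, without Hspb1. Of the 3334 genes in the table, 77 fitted these symbols, and all 77 had enough counts to be tested. They comprised 9 genes of the 20S core, 18 of the 19S regulator, 5 for proteasome assembly and inhibition, 9 E2 enzymes, all 8 subunits of TRiC, 4 prefoldin subunits, 2 HSP70 genes, 7 J proteins, 5 FK506-binding proteins, 2 cyclophilins, 2 BAG proteins, St13, Hspe1 and Hspb11. These groups follow the symbols, not the function of each product, so the 18 regulator genes are all those named Psmc or Psmd. Another 3 were caught by their letters. Hspbp1 encodes a nucleotide exchange factor of HSP70, while Tcp11l1 and Tcp11l2 are relatives of Tcp11 and no part of the chaperonin. Hspb11 carries a small heat shock protein name but encodes a subunit of the intraflagellar transport complex.

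Each sample was a male Sprague-Dawley rat, 6 weeks old, whose 2 capsules were pooled with the lens epithelial cells that line them. In the Hypothermia Group (5 rats), isolated lenses stayed in Hibernate-A medium at 4°C for 8 h before the capsule was removed. In the Normal Group (5 rats), capsules were taken directly after death, without medium. Cold, medium and time outside the body therefore cannot be told apart, and no allele, transgene or drug was involved. In such bulk samples, fewer cells of a type and less RNA per cell cannot be told apart either.

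The table was itself a selection by this comparison, since 3221 of its 3222 tested genes had an unadjusted p under 0.05 in edgeR's quasi-likelihood test. A gene outside it was not analysed here, and the direction of a listed gene is no independent evidence. Per rat, the listed counts added up to 9026144 to 12415121 in the Hypothermia Group and 4792595 to 8177803 in the Normal Group. Normalized counts are counts divided by the size factors of the authors, which were recovered from their group means and ran from 0.744 to 0.980 and from 1.08 to 1.26. Every one of 13 listed lens fibre markers (crystallins, Mip, Lim2 and the like) was called higher in the Hypothermia Group, with a median log2FoldChange of 2.15. Their summed FPKM ran from 193338 to 423496 there against 20251.5 to 130224 in the Normal Group. FPKM, a level per kilobase of gene, was proportional to the normalized count of each gene across rats. It therefore carries the authors' size factors and is no measure apart from them. This marker sum moved with the results below, and its part in them was not tested. Of the 7 lens epithelium markers, Gja1, Pax6 and Mab21l1 were listed, with a summed FPKM of 530 to 602 against 629 to 749. They did not move alike. Pax6 was called lower (adjusted p = 0.0498, edgeR), and Gja1, the largest part of the sum, was lower but not called. Mab21l1 was not called and went the other way, with means of 124 against 103 FPKM. Markers of pigment and ciliary epithelium (5 of 8 listed) summed to 5.11 to 10.4 against 8.25 to 37.5 FPKM. The one listed stroma marker, Col1a1, had 0.142 to 0.659 against 0.363 to 5.51 FPKM, and the one listed endothelium marker, Tek, had 2.07 to 3.47 against 2.93 to 4.04. None of the 7 blood and immune or 5 retina neuron markers was listed.

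Most of the 77 genes were higher in the Hypothermia Group, and by little. With the authors' size factors, 73 genes had a log2FoldChange above 0 and 4 below, whereas TMM factors computed on the listed genes gave 63 above and 14 below, median-of-ratios factors 61 and 16, and scaling by the listed-count totals 1 and 76. At an adjusted p under 0.05 (quasi-likelihood test of edgeR, Benjamini-Hochberg adjustment), 63 genes or 81.8% were called higher and 4 or 5.19% lower, against a background over all tested genes of 52.3% higher and 20.5% lower. The remaining 10 were not called. The called genes moved little in size: the median log2FoldChange of the 63 was 0.53, while that of all listed genes called higher was 0.59. None passed a log2FoldChange of 1 in either direction at that threshold, where 12.2% of all tested genes did. At an unadjusted p under 0.05 from the same edgeR fit, Pomp alone passed 1, and DESeq2 called it. All 5 Hypothermia rats lay above all 5 Normal rats for 49 genes or 63.6%, against 41.9% of all tested genes. They lay below for 1 gene, Hspa12a, against 16.7% of all tested genes. The median log2FoldChange of the 77 genes was 0.49, against 0.36 over all tested genes.

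**Figure D1:**
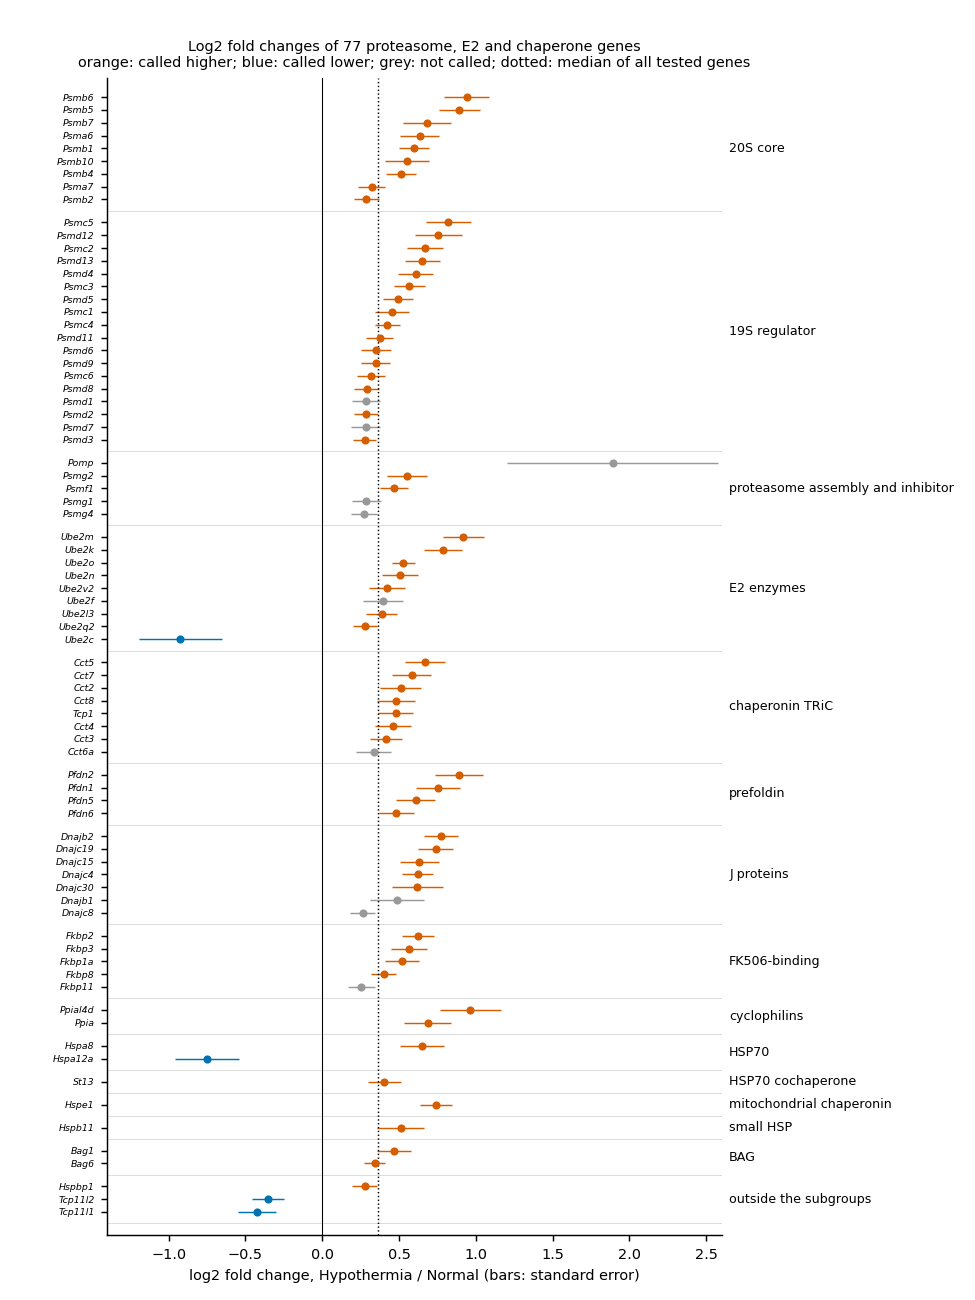
Log2FoldChange (Hypothermia over Normal, authors' size factors) of each of the 77 genes with its standard error, grouped by symbol. Hspb11 stands under small HSP by its name only. Orange marks genes called higher, blue called lower, grey not called, and the dotted line the median over all tested genes. Of the points, 73 sit right of 0 (1 of them with scaling by listed-count totals), Ube2c and Hspa12a reach furthest left, and Pomp has the widest bar.

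The fold changes rested on the scaling. With TMM factors the median log2FoldChange was 0.21 for the 77 genes and 0.07 for all tested genes, with median-of-ratios factors it was 0.20 and 0.05, and with listed-count totals it was -0.74 and -0.87. A scaling shifts all genes almost alike, so the gap between the 2 medians, 0.13 to 0.14, is fixed by construction and is no sign of stability. The number called was 63 higher and 4 lower with the authors' size factors. TMM gave 28 and 4 (36.4% and 5.19%, against 19.9% and 34.3% of all tested genes) and median-of-ratios factors 23 and 4 (29.9% and 5.19%, against 611 higher, and 34.2% lower, of 3220 tested genes). Listed-count totals gave 0 and 63 (81.8% lower, against 74.4% of all tested genes lower and 1.77% higher). In all, 23 genes were called higher with each of the first 3 scalings, and these are simply the 23 called with median-of-ratios factors. They were the core genes Psma6, Psmb1, Psmb5 and Psmb6, the regulator genes Psmc2, Psmc3, Psmc5, Psmd4, Psmd12 and Psmd13, the E2 genes Ube2k and Ube2m, the chaperonin genes Cct5 and Cct7, Pfdn1, Pfdn2, Hspe1, Dnajb2, Dnajc4, Dnajc15, Dnajc19, Ppia and Ppial4d. Hspa12a, Tcp11l1, Tcp11l2 and Ube2c were called lower with each of the 3. TMM and median-of-ratios factors move log2FoldChanges down from those with the authors' size factors, which favours the lower calls by construction. Because the 3 scalings shift all genes almost alike, neither list is a sign of stability. The shares of all tested genes called with each of the 3 were not computed. As a share of the listed counts the 77 genes went the other way, from 1.41% to 2.14% in the Normal Group to 0.867% to 1.21% in the Hypothermia Group. The 13 lens fibre markers alone made up 6.90% to 22.4% of these totals per Normal rat and 26.2% to 33.1% per Hypothermia rat. Such a share depends on every listed gene and does not measure the 77 genes alone. The same totals underlie each log2FoldChange with listed-count totals, and the part of the fibre markers in those values was not tested.

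**Figure D2:**
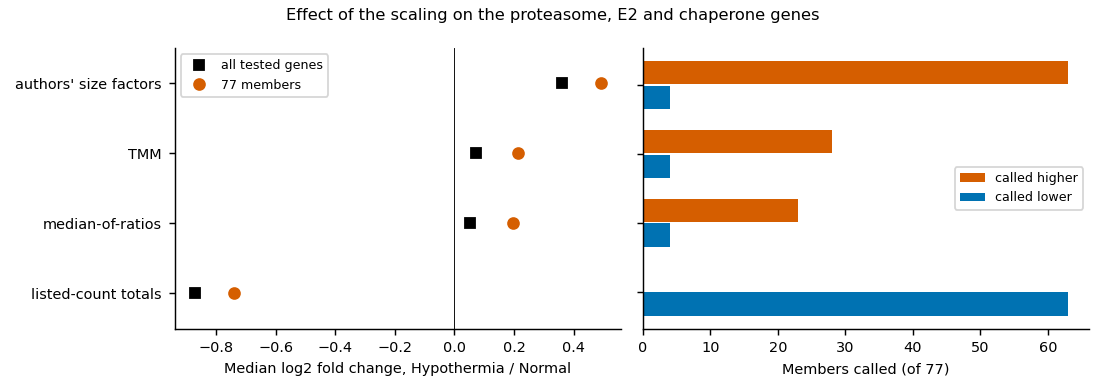
Left, median log2FoldChange (Hypothermia over Normal) of all tested genes (squares) and of the 77 genes (circles) under each of 4 scalings, and right, the number of the 77 genes called higher (orange) and lower (blue). Circle and square shift together from scaling to scaling by construction, and both lie below 0 with listed-count totals, where 63 genes are called lower.

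Rats within a group differed together. Normal replicate 1 had the highest normalized count of its group for 53 of the 77 genes, and Normal replicates 3 and 4 the lowest for 29 and 28. Hypothermia replicates 3 and 5 were highest for 42 and 28 genes, and Hypothermia replicate 2 lowest for 53. The summed lens fibre markers were likewise highest in Normal replicate 1 of the Normal Group, highest in replicates 5 and 3 of the Hypothermia Group, and lowest in Hypothermia replicate 2. The 77 genes together summed to 4775 FPKM in Hypothermia replicate 2 and 4436 FPKM in Normal replicate 1, the nearest rats of the groups, and to 6396 FPKM in Hypothermia replicate 3 and 3373 FPKM in Normal replicate 4, the furthest apart. Without Normal replicate 1, 65 genes were called higher (84.4%, against 53.2% of all tested genes). Without Normal replicate 4, 41 were (53.2%, against 33.3% of all tested genes). The 4 genes called lower became 0 without Hypothermia replicate 1 or 5 or Normal replicate 3 or 4, 1 without Hypothermia replicate 3 or 4 or Normal replicate 5, and 2 without Normal replicate 1 or 2. Over all tested genes, 9.27% to 20.5% were called lower in the fits without 1 rat. Of the 67 calls in either direction, 41 held in each of the 10 fits without 1 rat. The share of calls that held in this way over all tested genes was not computed.

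**Figure D3:**
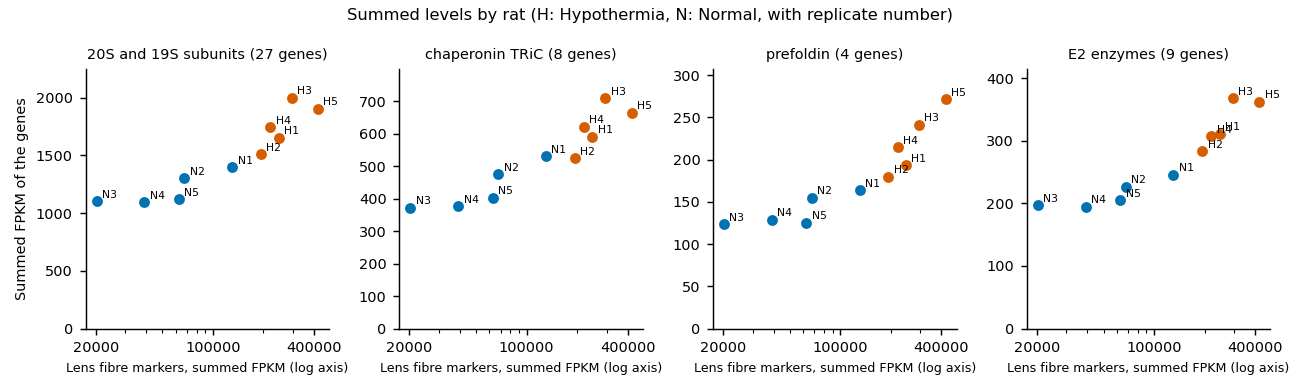
Summed FPKM of 4 groups of genes in each rat against the summed FPKM of 13 lens fibre markers (log axis), with Hypothermia rats in orange (H) and Normal rats in blue (N). Normal replicate 1 lies nearest to the Hypothermia rats on both axes, and for TRiC its 531 FPKM exceed the 524 of Hypothermia replicate 2.

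The 20S core had 9 listed genes, and all 9 were called higher with the authors' size factors, against 52.3% of all tested genes. With TMM 4 were, against 19.9% of all tested genes, and none was above 0 with listed-count totals. Listed were 6 of the 7 constitutive β-subunits, 2 of the 7 α-subunits (Psma6 and Psma7) and 1 of the 3 immune β-subunits (Psmb10). Their FPKM summed to 809 ± 95.3 (SD, n = 5) under hypothermia and to 531 ± 64.1 (SD, n = 5) in Normal rats. The 2 largest changes belonged to β-subunits that cut.

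Psmb6, which encodes the caspase-like β1 subunit, is on chromosome 10 (57131386 to 57133637, + strand, build Rnor_6.0). Its normalized counts were 1353, 1251, 1707, 1544 and 1803 in Hypothermia replicates 1 to 5 and 1053, 848, 650, 688 and 754 in Normal replicates 1 to 5. The lowest Hypothermia rat, replicate 2, lay above the highest Normal rat, replicate 1. The log2FoldChange was 0.94 (standard error 0.14, adjusted p = 0.00471 by the quasi-likelihood test of edgeR with Benjamini-Hochberg adjustment), 0.65 with TMM and -0.28 with listed-count totals. Psmb5, which encodes the chymotrypsin-like β5 subunit, is on chromosome 15 from 33259043 to 33263659. It had 1411, 1216, 1843, 1627 and 1914 normalized counts in the Hypothermia rats and 1017, 947, 784, 771 and 792 in the Normal rats, again without overlap. Its log2FoldChange was 0.89 (standard error 0.13, adjusted p = 0.00459, same edgeR test), 0.60 with TMM and -0.35 with listed-count totals. The third cutting subunit, the trypsin-like β2 of Psmb7, had a log2FoldChange of 0.68 (standard error 0.16). Psmb2, a β-subunit without a cutting site, had the smallest change, 0.29 (standard error 0.08, adjusted p = 0.0339 from edgeR), which was -0.0215 with median-of-ratios factors and -0.94 with listed-count totals. Leaving out 1 rat ended its call in 7 of 10 fits. Psmb10, the immune counterpart of Psmb7, was the least abundant core gene, at 13.7 FPKM in the Hypothermia Group and 9.32 FPKM in the Normal Group, where the other 8 had mean values from 29.0 to 93.3 FPKM.

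The 19S regulator had 18 listed genes by symbol (Psmc and Psmd), and 16 were called higher with the authors' size factors (88.9%, against 52.3% of all tested genes). With TMM 6 were, against 19.9% of all tested genes, and none was above 0 with listed-count totals. The median log2FoldChange was 0.40, and it was 0.51 over the 6 ATPases (Psmc1 to Psmc6, all called) and 0.35 over the 12 Psmd genes (10 called). All 18 were below 0 with listed-count totals, and Psmd1, Psmd2, Psmd3, Psmd7 and Psmd8 also with TMM or median-of-ratios factors. The highest was the ATPase gene Psmc5. It had 2006, 1776, 2607, 1991 and 2575 normalized counts in the Hypothermia rats and 1512, 1401, 972, 1090 and 1221 in the Normal rats, and no Normal rat reached the lowest Hypothermia rat. Its log2FoldChange was 0.82 (standard error 0.14, adjusted p = 0.00601, edgeR), -0.41 with listed-count totals. Psmd4, whose product is a receptor for ubiquitin chains, had 0.61 (standard error 0.12) and -0.63 with listed-count totals. Psmd11, a lid subunit, had 0.37 (standard error 0.09, adjusted p = 0.0181, edgeR) and -0.87 with listed-count totals, and leaving out 1 rat ended its call in 3 of 10 fits. Psmd3, another lid subunit, was the lowest called, at 0.28 (standard error 0.08, adjusted p = 0.0314, edgeR), with -0.0146 under TMM, -0.0374 under median-of-ratios factors and -0.96 under listed-count totals, and 7 of 10 fits without 1 rat did not call it. Together the core and regulator genes summed to 1654, 1508, 1996, 1744 and 1903 FPKM in the Hypothermia rats and to 1396, 1300, 1101, 1093 and 1120 FPKM in the Normal rats. These sums, which carry the authors' size factors as all FPKM values here do, did not overlap.

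**Figure D4:**
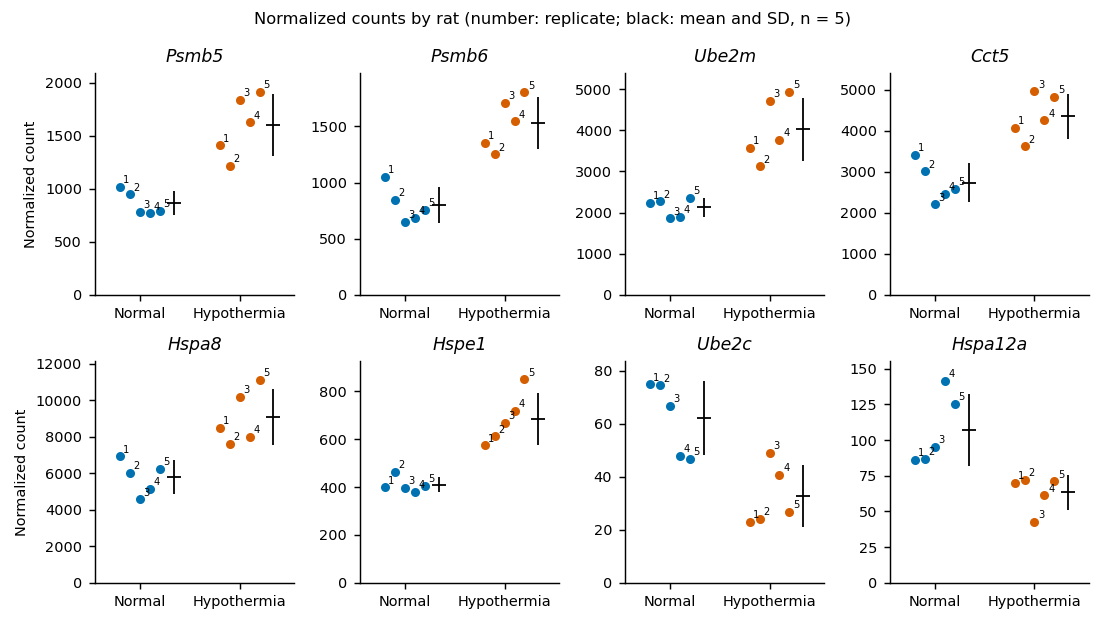
Normalized counts of 8 of the genes in each rat (numbers are replicates), with the group mean and SD in black (n = 5). For the first 6 genes all Hypothermia rats lie above all Normal rats with the authors' size factors (their log2FoldChanges turn negative with listed-count totals), while Hypothermia rats are lower for Ube2c, with overlap, and for Hspa12a, without.

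Of the assembly and inhibitor genes, 2 of 5 were called higher with the authors' size factors (40%, against 52.3% of all tested genes). TMM and median-of-ratios factors called 0, against 19.9% and 19% of all tested genes. Psmg2, an assembly chaperone of the α-ring, reached 0.55 (standard error 0.13, adjusted p = 0.0170, edgeR), and Psmf1, which encodes the proteasome inhibitor PI31, had 0.47 (standard error 0.09, adjusted p = 0.00845, edgeR). With listed-count totals these were -0.69 and -0.75. Pomp, which encodes the chaperone of β-ring maturation, had the largest value of the 77 genes and was not called. Its normalized counts were 14.5, 110, 30.1, 5.10 and 24.2 in the Hypothermia rats and 15.7, 5.73, 7.96, 12.8 and 7.32 in the Normal rats. Hypothermia replicate 2 alone lay far above the other rats, and Hypothermia replicate 4 below every Normal rat. Its log2FoldChange was 1.89 (standard error 0.69, adjusted p = 0.100, edgeR). Without Hypothermia replicate 2 it was 0.88, not called, and without Hypothermia replicate 4 it was 2.18 and called. None of the 4 genes for the proteasome activators PA28 and PA200 was listed.

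The E2 enzymes had 7 of 9 genes called higher and 1 lower with the authors' size factors (77.8% and 11.1%, against 52.3% and 20.5% of all tested genes). TMM gave 3 and 1, against 19.9% and 34.3% of all tested genes, and none was above 0 with listed-count totals. Ube2m, which encodes the E2 for the ubiquitin-like protein NEDD8, had the largest change. Its normalized counts were 3568, 3126, 4710, 3763 and 4927 in the Hypothermia rats and 2237, 2274, 1862, 1896 and 2352 in the Normal rats. The Normal rats lay close together and all below the Hypothermia rats. The log2FoldChange was 0.92 (standard error 0.13, adjusted p = 0.00459, edgeR), 0.62 with TMM and -0.34 with listed-count totals. The gene is on chromosome 1 from 65537640 to 65541177. Ube2f, the other E2 for NEDD8, missed the threshold at 0.40 (standard error 0.13, adjusted p = 0.0682, edgeR). Ube2k, an E2 that builds the chains read by the proteasome, had 0.79 (standard error 0.13, adjusted p = 0.00506, edgeR). Ube2n, the E2 for chains with signalling roles, had 0.51 (standard error 0.12, adjusted p = 0.0162, edgeR) and -0.71 with listed-count totals, and its partner Ube2v2 had 0.42 (standard error 0.12). Ube2c, the E2 of the anaphase-promoting complex in dividing cells, went the other way. It had 22.9, 24.0, 49.0, 40.8 and 26.9 normalized counts in the Hypothermia rats and 74.9, 74.4, 66.8, 48.0 and 46.7 in the Normal rats, so that Hypothermia replicate 3 overlapped Normal replicates 4 and 5. Its log2FoldChange was -0.92 (standard error 0.27, adjusted p = 0.0425, edgeR), its FPKM was 0.679 against 1.29, and leaving out 1 rat ended its call in 9 of 10 fits.

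The chaperonin TRiC was listed whole. All 8 subunit genes had log2FoldChanges above 0 with the authors' size factors, TMM and median-of-ratios factors and below 0 with listed-count totals. With the authors' size factors 7 were called higher (87.5%, against 52.3% of all tested genes). With TMM 2 were, against 19.9% of all tested genes. With the authors' size factors the 8 moved within a narrow range, from 0.34 (Cct6a, not called, adjusted p = 0.0722, edgeR) to 0.67 (Cct5), with a median of 0.48. Summed FPKM was 589, 524, 709, 621 and 665 in the Hypothermia rats and 531, 475, 372, 376 and 402 in the Normal rats, so the groups overlapped through Normal replicate 1 and Hypothermia replicate 2. For single subunits, 3 of 8 did not overlap (Cct3, Cct5 and Cct7), a share of 37.5% against 41.9% of all tested genes. Cct5 (chromosome 2, 84667633 to 84678790) had 4075, 3622, 4956, 4248 and 4830 normalized counts in the Hypothermia rats and 3411, 3014, 2202, 2461 and 2589.5 in the Normal rats. Here Normal replicate 1 stayed below Hypothermia replicate 2. The adjusted p was 0.00858 (edgeR, standard error 0.13), and the log2FoldChange was 0.38 with TMM and -0.55 with listed-count totals. Cct3 was the lowest called, at 0.42 (standard error 0.10, adjusted p = 0.0216, edgeR), -0.79 with listed-count totals, and 4 of 10 fits without 1 rat did not call it. Per length, Cct5 was the most abundant subunit in both groups (150 and 94.2 FPKM) and Cct3 the least (42.4 and 31.8 FPKM).

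Prefoldin, the partner of TRiC, had 5 of its 6 subunits listed, 4 of them under Pfdn symbols. These 4 were all called higher with the authors' size factors, against 52.3% of all tested genes, and kept their calls in each of the 10 fits. With TMM 3 were called higher, against 19.9% of all tested genes, and none was above 0 with listed-count totals. Pfdn2 had 649, 660, 959, 721 and 1087 normalized counts in the Hypothermia rats and 483, 516, 380, 409 and 409 in the Normal rats, without overlap. Its log2FoldChange was 0.89 (standard error 0.15, adjusted p = 0.00595, edgeR), -0.37 with listed-count totals. Pfdn6 had the smallest, 0.48 (standard error 0.11, adjusted p = 0.0162, edgeR), -0.77 with listed-count totals, and overlapped because Normal replicate 2, at 512, lay above Hypothermia replicate 2, at 498.

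The classical heat shock genes were mostly not in the table: of 14 abundant or inducible heat shock genes and J proteins looked for, 3 were listed (Hspa8, Hspe1 and Dnajb1), and the others, among them the Hsp90 genes, Hspa1a, Hspa5 and Hspd1, were not analysed here. Hspa8 encodes the constitutive cytosolic HSP70 and maps to chromosome 8 (44990014 to 44993179, build Rnor_6.0). It had 8510, 7603, 10190, 8001 and 11131 normalized counts in the Hypothermia rats and 6937, 6037, 4569, 5145 and 6253 in the Normal rats. All Hypothermia rats were above all Normal rats, with replicate 5 highest. The log2FoldChange was 0.65 (standard error 0.14, adjusted p = 0.0131, edgeR), 0.36 with TMM, where it was still called, 0.34 with median-of-ratios factors, where it was not, and -0.58 with listed-count totals. Hspa12a, a distant relative of HSP70, had 69.9, 72.1, 42.7, 61.2 and 71.2 normalized counts in the Hypothermia rats and 86.0, 86.7, 95.5, 142 and 125 in the Normal rats. It was the one gene of the 77 with every Hypothermia rat below every Normal rat. Its log2FoldChange was -0.75 (standard error 0.21, adjusted p = 0.0330, edgeR), and 7 of 10 fits without 1 rat did not call it. St13, the HSP70 cochaperone Hip, had 0.40 (standard error 0.11, adjusted p = 0.0265, edgeR), -0.82 with listed-count totals, and was not called in 6 of 10 fits without 1 rat. Hspe1, the lid of the mitochondrial chaperonin (chromosome 9, 61692154 to 61694599), had 574, 613, 669, 719 and 850 normalized counts in the Hypothermia rats and 400, 463, 397, 381 and 406 in the Normal rats. The groups lay apart and the Normal rats differed little. The log2FoldChange was 0.74 (standard error 0.11, adjusted p = 0.00459, edgeR), 0.45 with TMM and -0.51 with listed-count totals.

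Among the J proteins, which deliver clients to HSP70, 5 of 7 were called higher with the authors' size factors (71.4%, against 52.3% of all tested genes). With TMM 4 were, against 19.9% of all tested genes, and none was above 0 with listed-count totals. Dnajb2, a J protein that binds ubiquitin chains, had 1588, 1561, 1693, 1408 and 2092 normalized counts in the Hypothermia rats and 1085, 1020, 890, 905 and 979 in the Normal rats. Every Hypothermia rat was higher, and the log2FoldChange was 0.77 (standard error 0.11, adjusted p = 0.00459, edgeR), -0.47 with listed-count totals. Dnajc15 and Dnajc19, which belong to the mitochondrial import motor, had 0.63 (standard error 0.12) and 0.74 (standard error 0.11), and turned to -0.61 and -0.52 with listed-count totals. Dnajc30, another mitochondrial J protein, was the lowest called, at 0.62 (standard error 0.17, adjusted p = 0.0286, edgeR), -0.63 with listed-count totals, and 6 of 10 fits without 1 rat did not call it. Dnajb1, the inducible HSP40, was not called. It had 1419, 1615, 1337, 1512 and 1998 normalized counts in the Hypothermia rats and 1701, 1045, 921, 931 and 1025 in the Normal rats. Normal replicate 1 lay among the Hypothermia rats, and the other 4 Normal rats below all of them. The log2FoldChange was 0.49 (standard error 0.18, adjusted p = 0.0969, edgeR), -0.69 with listed-count totals. Without Normal replicate 1 it was 0.68 and called, the one such fit of the 10. Dnajb1 was also called with DESeq2 and with adjustment over the listed genes, which called 58.8% and 63.7% of all tested genes higher.

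The prolyl isomerases had 6 of 7 genes called higher with the authors' size factors, against 52.3% of all tested genes. TMM called 4 higher, against 19.9% of all tested genes, and none was above 0 with listed-count totals. Ppia, which encodes cyclophilin A, was the most abundant of the 77 genes at 1220 ± 205 FPKM (SD, n = 5) under hypothermia and 758 ± 132 FPKM (SD, n = 5) in Normal rats. It showed a log2FoldChange of 0.69 (standard error 0.15, adjusted p = 0.0132, edgeR), -0.54 with listed-count totals. Ppial4d, a near copy of Ppia, had 0.96 (standard error 0.20, adjusted p = 0.0106, edgeR), -0.24 with listed-count totals, but reads of the copies may have been divided between them, so its value is uncertain. Fkbp2, which acts in the endoplasmic reticulum, had 0.62 (standard error 0.10, adjusted p = 0.00552, edgeR) and Fkbp8, an anchored form at mitochondria, 0.40 (standard error 0.08, adjusted p = 0.00965, edgeR). With listed-count totals they had -0.65 and -0.83. The BAG genes were both called with the authors' size factors and neither with TMM or median-of-ratios factors. Bag1, an exchange factor of HSP70, had 0.47 (standard error 0.11, adjusted p = 0.0161, edgeR). Bag6, which holds tail-anchored proteins, had 0.34 (standard error 0.07, adjusted p = 0.00880, edgeR). They turned to -0.77 and -0.88 with listed-count totals. Bag6 varied little between rats, with 2957 to 3061 normalized counts in the Hypothermia rats against 2248 to 2503 in the Normal rats.

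Among the genes caught by their letters or a misleading name, Hspb11, the transport subunit, was at 0.51 (standard error 0.15, adjusted p = 0.0444, edgeR), -0.75 with listed-count totals. Hspbp1 had 0.28 (standard error 0.08, adjusted p = 0.0402, edgeR), which was -0.0102 with TMM, -0.0336 with median-of-ratios factors and -0.95 with listed-count totals. Fits without 1 rat did not call Hspb11 in 7 of 10 cases and Hspbp1 in 9 of 10. Tcp11l1 and Tcp11l2 were lower, at -0.43 (standard error 0.12, adjusted p = 0.0408, edgeR) and -0.35 (standard error 0.10, adjusted p = 0.0428, edgeR), with overlap between the groups, and lost their calls in 8 and 6 of the 10 fits. With the Tcp11 relatives set aside, Ube2c and Hspa12a were the genes called lower.

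Genes that work with this machinery were looked for by name, and 19 were tested. With the authors' size factors 13 were called higher and 2 lower, with TMM 6 and 3, and with listed-count totals 1 and 17, where Hsf4 and Hmox1 alone stayed above 0. Over all tested genes the shares called higher and lower were, in the same order, 52.3% and 20.5%, 19.9% and 34.3%, and 1.77% and 74.4%. The values that follow are log2FoldChanges with the authors' size factors. Of 11 ubiquitin and E1 genes 3 were listed, all called higher with the authors' size factors, among them the ubiquitin gene Ubb (0.45, standard error 0.11) and the E1 gene Uba1 (0.31, standard error 0.09). Of 17 proteasome partners 9 were listed. Among those called higher were the 19S components Sem1 (0.63, standard error 0.11) and Adrm1 (0.41, standard error 0.07), and the p97 cofactor Nsfl1c (0.42, standard error 0.09). Called lower were Nfe2l2, the antioxidant response factor (-0.50, standard error 0.14), and the ubiquitin chain shuttle Ubqln2 (-0.33, standard error 0.07), and Vcp, Rad23b and Ufd1 were not called. Of 3 heat shock factors Hsf4, the lens form, was listed, at 2.19 (standard error 0.48). Of 12 further cochaperones 4 were listed and all called higher, from 0.27 (Sil1) to 0.71 (Stub1, a ubiquitin ligase that reads HSP70 clients). In the 10 fits without 1 rat, Sil1 lost its call in 9, Uba1 and Nfe2l2 in 7, Cdc37 in 6 and Ubb in 1. Of 16 genes of folding and stress in the endoplasmic reticulum 1 was listed, the oxidase gene Ero1a (-0.45, standard error 0.15, not called, adjusted p = 0.0630, edgeR). Of 7 genes of the cold and stress response 1 was listed, the heme oxygenase gene Hmox1 (1.80, standard error 0.40), with overlap between the groups.

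Other listed gene families placed these values. Of 72 nuclear genes of the respiratory chain, 68 were called higher and none lower with the authors' size factors, with a median log2FoldChange of 0.63. Of 47 ubiquitin ligases and deubiquitinases, 25 were called higher and 13 lower, with a median of 0.30. The 53.2% called higher in that family was close to the 52.3% of all tested genes, while the respiratory chain genes had 94.4%. Of all tested genes 20.5% were called lower. The 77 genes lay between them at 0.49. They also lay between them in median gene length, at 1548 bases. It was 615 bases for the respiratory chain genes and 3179 for the ligases and deubiquitinases. Shorter families thus had the higher medians, and the part of length in this order was not tested. No difference between these families was tested.

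Transcript length ran along with direction in the whole table. Across the 3222 tested genes, which are not independent replicates, Spearman's rho between gene length and log2FoldChange was -0.43, and across the 77 genes it was -0.32. Among the shortest genes, up to 1553 bases when the table is cut into 3 parts by length, 76.6% of all tested genes and 34 of 39 of the proteasome, E2 and chaperone genes were called higher with the authors' size factors. Among the longest, from 3065 bases, 26.8% of all tested genes were, and 6 of 9 of these genes. The median log2FoldChange of the shortest genes was 0.55 for both. Among the genes of middle length it was 0.48 for the 77 and 0.35 for all, and among the longest 0.37 and -0.31. RNA was sequenced from samples with an RNA integrity number of at least 5.8, without values per rat here, and the part of RNA quality in this relation was not tested.

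**Figure D5:**
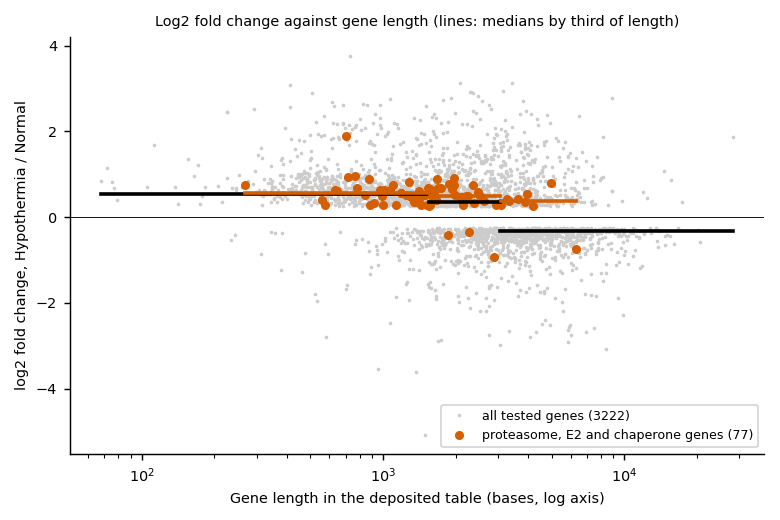
Log2FoldChange (Hypothermia over Normal, authors' size factors) against gene length in bases (log axis) for 3222 tested genes (grey) and the 77 genes (orange), with medians over short, middle and long genes as lines (black for all, orange for the 77). The lines meet at 0.55 among the shortest genes and part among the longest, at 0.37 and -0.31.

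Promoters of these genes were searched for the elements of heat shock factors and of antioxidant response factors, which are known to act on chaperone and proteasome genes, and for the common ETS and CCAAT motifs. RefSeq sequences of build GRCr8 (250 bases before to 50 after each start) were found for 64 of the 77 genes. A heat shock element of 3 units, GAANNTTCNNGAA on either strand, was in 5 of the 64 (7.81%) and in 0.736% of 27457 promoters. The antioxidant response core TGACNNNGC, read on both strands, was in 14 (21.9%) against 12.2%, the ETS site CCGGAAG in 18 (28.1%) against 9.22%, and CCAAT in 25 (39.1%) against 37.7%. The ETS site overlaps the heat shock element in Hspe1. The 27457 promoters were those of all RefSeq genes, not of the listed or expressed genes, so the sets compared are unlike. The share among the listed genes was not computed, so the gaps are not shown to be particular to these genes. Such matches describe letters and do not show that a factor binds. The heat shock elements of the listed heat shock genes are shown first, with the match in capitals and 20 bases on each side, 5′ to 3′ along the gene, at chr8:50080281-50080333 and chr8:50080439-50080491 (Hspa8, + strand, 213 and 55 bases before the start) and chr9:64084242-64084294 (Hspe1, + strand, 65 bases before). Hspe1 holds a second match on the other strand that overlaps the first, 60 bases before the start, so its window is printed again with that match in capitals (chr9:64084247-64084299). They are shown because Hspa8 and Hspe1 were the called heat shock genes whose promoters held the element.
Hspa8, distal element: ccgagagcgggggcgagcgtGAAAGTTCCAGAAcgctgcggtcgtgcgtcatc
Hspa8, proximal element: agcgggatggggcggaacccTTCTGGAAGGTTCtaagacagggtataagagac
Hspe1, first match: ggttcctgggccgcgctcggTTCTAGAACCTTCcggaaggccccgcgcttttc
Hspe1, overlapping match: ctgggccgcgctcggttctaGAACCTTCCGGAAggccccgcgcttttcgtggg
The antioxidant response cores of the core subunits with the largest and the smallest change follow, at chr10:55737844-55737892 (Psmb6, + strand, 24 bases before the start), chr15:32047411-32047459 (Psmb5, - strand, 60 bases before) and chr5:144254970-144255018 (Psmb2, + strand, 68 bases before).
Psmb6: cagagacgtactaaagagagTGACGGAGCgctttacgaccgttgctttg
Psmb5: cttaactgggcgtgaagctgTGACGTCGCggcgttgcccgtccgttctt
Psmb2: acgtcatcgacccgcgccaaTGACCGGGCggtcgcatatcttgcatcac
The core was thus found both in the genes with log2FoldChanges of 0.94 and 0.89 and in Psmb2 with 0.29. Heat shock elements also lay in the promoters of Cct4, Ppial4d and Ube2l3, with log2FoldChanges of 0.46, 0.96 and 0.39 (-0.77, -0.24 and -0.83 with listed-count totals).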

How the data were processed

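RNA-seq of lens capsules from 5 Hypothermia Group and 5 Normal Group rats was analysed. Proteome and RT-qPCR data were left aside. Reads were mapped by the authors to Rnor_6.0 (HISAT2 2.0.5) and counted per gene (featureCounts 1.5.0-p3), per the labels, and the annotation release is not given in the sources used here. The deposited table holds raw counts per rat, FPKM per rat made by the authors from those counts and gene length, a signal per group (the authors' mean normalized counts from DESeq2 1.16.1) and gene length in bases. Across rats FPKM was proportional to the counts divided by the authors' size factors. Deposited columns with the authors' own comparison (fold change, p and adjusted p) were not used. The library kit does not mark strand as far as the sources say, so overlapping antisense genes cannot be told apart.

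The table held 3334 genes, 124 unnamed, with 8 symbols occurring more than once. Each rat's size factor was recovered from the group means by non-negative least squares (largest relative error 4.89e-10). The quasi-likelihood test of edgeR 4.0.16 (R 4.3.3) was run on the counts with group as factor, after filterByExpr, with dispersions from estimateDisp and a robust glmQLFit, and covered 3222 genes. Because the table holds genes selected by this comparison, Benjamini-Hochberg adjustment took the number of tests as 17000, a round number near that of expressed genes. Called means an adjusted p under 0.05. Standard errors were derived from the log2 fold change and its F statistic (size over root F). Depth per rat is known for listed genes only, and low counts such as those of Pomp and Ube2c carry the widest errors. P-values set the group difference against the spread between these rats, in genes already selected by the same comparison. The procedure was tested on simulated counts with known size factors, where a small part of the genes was changed, as many up as down. The selected table differs from that setting, so the simulation does not bear on the choice of scaling.

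The genes, their groups and the lists of related genes and markers were chosen with earlier results of these data known. Genes were named by rule: those called past a log2 fold change of 1, the highest and lowest called gene of each group, all called lower, a fixed list of heat shock, proteasome and E2 genes, and genes matched by letters only. Every other gene of the 77 that is named, such as Psmb7, Psmd4, Ube2k and Cct4, was chosen after its values were seen. Alternatives were TMM, median-of-ratios and listed-count-total scaling, adjustment over the listed genes, DESeq2 1.42.0, no filter, a fit that was not robust, a replicate block, and leaving out each rat. Figures were drawn with matplotlib 3.10.9. Values of some related genes are not reported here.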

Additional observations from a re-analysis of the deposited data

Results flagged for a closer look

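In 4 of the 66 groups of 5 rats examined for the named genes, 1 rat lay far from the other 4 (Dixon's test at 95%), and chance flags about 1 group in 20. Dnajb1 had a normalized count of 1701 in Normal replicate 1, where the other Normal rats had 921 to 1045. Pfdn6 had 512 in Normal replicate 2 against 385 to 420. Pomp had 110 in Hypothermia replicate 2 against 5.10 to 30.1. Ube2n had 1341 in Hypothermia replicate 3 against 994 to 1071.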

How the results depend on the processing

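The number of genes called higher, 63, was 28 with TMM, 23 with median-of-ratios factors, 38 with TMM and adjustment over the tested listed genes, 0 with listed-count totals, 27 with the replicate number as a block, and 41 to 65 with each rat left out. Over all tested genes the share called higher was 52.3%, and it was 19.9% with TMM, 611 of 3220 with median-of-ratios factors, 32.2% with TMM and adjustment over the tested listed genes, 1.77% with listed-count totals, 25.1% with the block and 33.3% to 53.2% with each rat left out. The number called lower, 4, was 63 with listed-count totals (74.4% of all tested genes were lower). It was 0 with the block (4.16% of all tested genes) and 0 to 3 with each rat left out (9.27% to 20.5% of all tested genes). Past a log2 fold change of 1 there were 2 genes with TMM under either adjustment and with median-of-ratios factors (Hspa12a and Ube2c), 4 with listed-count totals, 1 with adjustment over the listed genes and with DESeq2 (Pomp), and 0 to 2 with each rat left out. The median of 0.49 was 0.21 with TMM under either adjustment, 0.20 with median-of-ratios factors, -0.74 with listed-count totals, 0.50 with the replicate block and 0.45 to 0.56 with each rat left out. DESeq2 called 71 genes higher and 4 lower, against 58.8% and 29.4% of all tested genes. Adjustment over the listed genes called 73 and 4, against 63.7% and 36.3%, which only restates the signs in a selected table. No filter left 63 and 4, against 51.7% and 20.9% of all tested genes. With robust = FALSE they were also 63 and 4, against 52.6% and 20.8%. Same-numbered rats are different animals, and the correlations of their deviations were 0.03, -0.17, 0.03, -0.11 and 0.23, so the block stands for a shared number only. TMM under either adjustment turned Hspbp1 (-0.0102) and Psmd3 (-0.0146), and median-of-ratios factors Hspbp1 (-0.0336), Psmb2 (-0.0215) and Psmd3 (-0.0374). Listed-count totals shifted all tested genes by construction, from a median of 0.36 to -0.87, and turned 28 named genes: Bag1 -0.77, Bag6 -0.88, Cct3 -0.79, Cct5 -0.55, Dnajb1 -0.69, Dnajb2 -0.47, Dnajc30 -0.63, Fkbp2 -0.65, Fkbp8 -0.83, Hspa8 -0.58, Hspb11 -0.75, Hspbp1 -0.95, Hspe1 -0.51, Pfdn2 -0.37, Pfdn6 -0.77, Ppia -0.54, Ppial4d -0.24, Psmb2 -0.94, Psmb5 -0.35, Psmb6 -0.28, Psmc5 -0.41, Psmd11 -0.87, Psmd3 -0.96, Psmf1 -0.75, Psmg2 -0.69, St13 -0.82, Ube2m -0.34 and Ube2n -0.71. Because the table holds changed genes, TMM and median-of-ratios factors computed on it break their assumption that most genes are unchanged, and the sums of listed counts are parts of the libraries. The cause of the other changes was not tested.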
